A study of Homo sapiens with 48 samples.

Results

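NRF2 and the antioxidant genes around it were followed by RNA sequencing in AMO1, a human multiple myeloma line derived from a plasmacytoma. The genes were taken by symbol from the deposited count table and made up 9 of its 58302 genes: NFE2L2, KEAP1, NQO1, HMOX1, TXNRD1, TXN, GCLC, GCLM and SRXN1. Each of 4 AMO1 clones carried shRNAs under a doxycycline (Dox) inducible promoter, and each genotype label names 3 hairpins for the target. They were directed against IRE1 (gene ERN1) in shIRE1 clone 1 and shIRE1 clone 3 and against XBP1 in shXBP1 clone 1 and shXBP1 clone 18. Each clone was taken untreated (0 h) and after 24, 48 and 72 h in 0.2 µg/ml Dox, in 3 cultures per time, giving 48 libraries in 16 groups. Each group is thus a single clone, no clone with a non-targeting hairpin was analysed here, and an effect of Dox itself cannot be told apart from silencing.

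NRF2, the protein of NFE2L2, is a transcription factor that partners small MAF proteins on antioxidant response elements and turns on genes of glutathione synthesis, thioredoxin recycling, quinone reduction and haem breakdown. KEAP1 holds NRF2 for ubiquitination by the CUL3 ligase. Oxidants or electrophiles that modify KEAP1 let NRF2 accumulate, so NRF2 activity is set mostly at the protein and not by NFE2L2 mRNA. Plasma cells fold large amounts of disulfide-bonded immunoglobulin in the endoplasmic reticulum, a process that yields peroxide. IRE1 with its splicing substrate XBP1 is the branch of the unfolded protein response that adapts this organelle to its load.

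Under Dox the members did not move as a block. TXNRD1, the cytosolic thioredoxin reductase, fell by 72 h to 0.540 of its 0 h level in shIRE1 clone 1 and to 0.642 in shIRE1 clone 3, and the modifier subunit gene of glutathione synthesis, GCLM, fell in both clones as well. NQO1, a quinone reductase, and HMOX1, the inducible haem oxygenase, rose in shIRE1 clone 3, to 1.50-fold and 2.53-fold. In the reported fits neither was called higher in the other clones. NQO1 was called higher in shXBP1 clone 18 when a library near another clone was left out. NFE2L2 itself fell at all times in shIRE1 clone 3 and only at 24 h in shIRE1 clone 1, and it passed the test in neither shXBP1 clone.

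The libraries held 19177855 to 40767202 counts. ERN1 went from a mean of 438 CPM at 0 h to 125 CPM at 72 h in shIRE1 clone 3 and from 152 to 102 CPM in shIRE1 clone 1, whose level was already low without Dox. By 24 h ERN1 was at 145 CPM in shIRE1 clone 3 and at 127 CPM in shIRE1 clone 1, the smaller drop being that of clone 1. XBP1 went from 167 to 34.0 CPM in shXBP1 clone 1 and from 170 to 37.9 CPM in shXBP1 clone 18. XBP1 also went from 179 to 138 CPM in shIRE1 clone 1 and from 217 to 121 CPM in shIRE1 clone 3. ERN1 went from 188 to 314 CPM in shXBP1 clone 1 and from 414 to 338 CPM in shXBP1 clone 18. All 9 plasma cell markers had a median of at least 10 CPM over the libraries, and of 14 markers of other cells all but CD3E, at a median of 12.5 CPM, were under 1 CPM. By correlation over all genes 46 of 48 libraries were nearest to their own group. The library labelled shXBP1 clone 18, 72 h, replicate 3 correlated at 0.996 with shXBP1 clone 1 and 0.985 with its own group, and of 208 genes that separate these clones at 72 h only 2.40% lay nearer its own clone. The library labelled shIRE1 clone 3, 24 h, replicate 1 correlated at 0.994 with shIRE1 clone 1 and 0.992 with its own group, with 46.3% of 41 such genes nearer its own clone, against at least 80% in the other 46 libraries. For part of the results that use the groups of these libraries, a value without them or their effect is given, and the rest include them.

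Levels below are TMM-scaled CPM, the counts of a gene relative to its library's scaled total. In GENCODE 44 on GRCh38 the genes lie apart, NFE2L2 at chr2:177218667-177392756, KEAP1 at chr19:10486125-10503558, TXNRD1 at chr12:104215779-104350307 and TXN at chr9:110243810-110256507. GCLM lies at chr1:93885199-93909456, GCLC at chr6:53497341-53616970, NQO1 at chr16:69706996-69726668, HMOX1 at chr22:35380361-35394214 and SRXN1 at chr20:646615-653200, and all 9 are protein coding. Between genes, levels were compared as CPM per kilobase of the canonical transcript. On this scale TXN lay highest, at 133 to 229 over the 48 libraries, together with NFE2L2 at 116 to 210, followed by TXNRD1 at 61.1 to 128, KEAP1 at 35.1 to 77.4 and NQO1 at 28.2 to 51.4. GCLC lay at 12.3 to 17.7, GCLM at 6.22 to 10.6 and HMOX1 at 1.99 to 7.25. SRXN1 had 0 to 15 counts per library, at most 0.194 CPM per kilobase. The filter on low counts removed it in every clone, and only 3 libraries, all of 0 h, brought it past the filter of the 48-library fit. SRXN1 was therefore not tested, and counts of members called are over the other 8. Changes are log2 fold changes ± standard error (SE) from edgeR's quasi-likelihood test within a clone, adjusted over all its genes tested, with an adjusted p under 0.05 taken as a call.

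**Figure D1:**
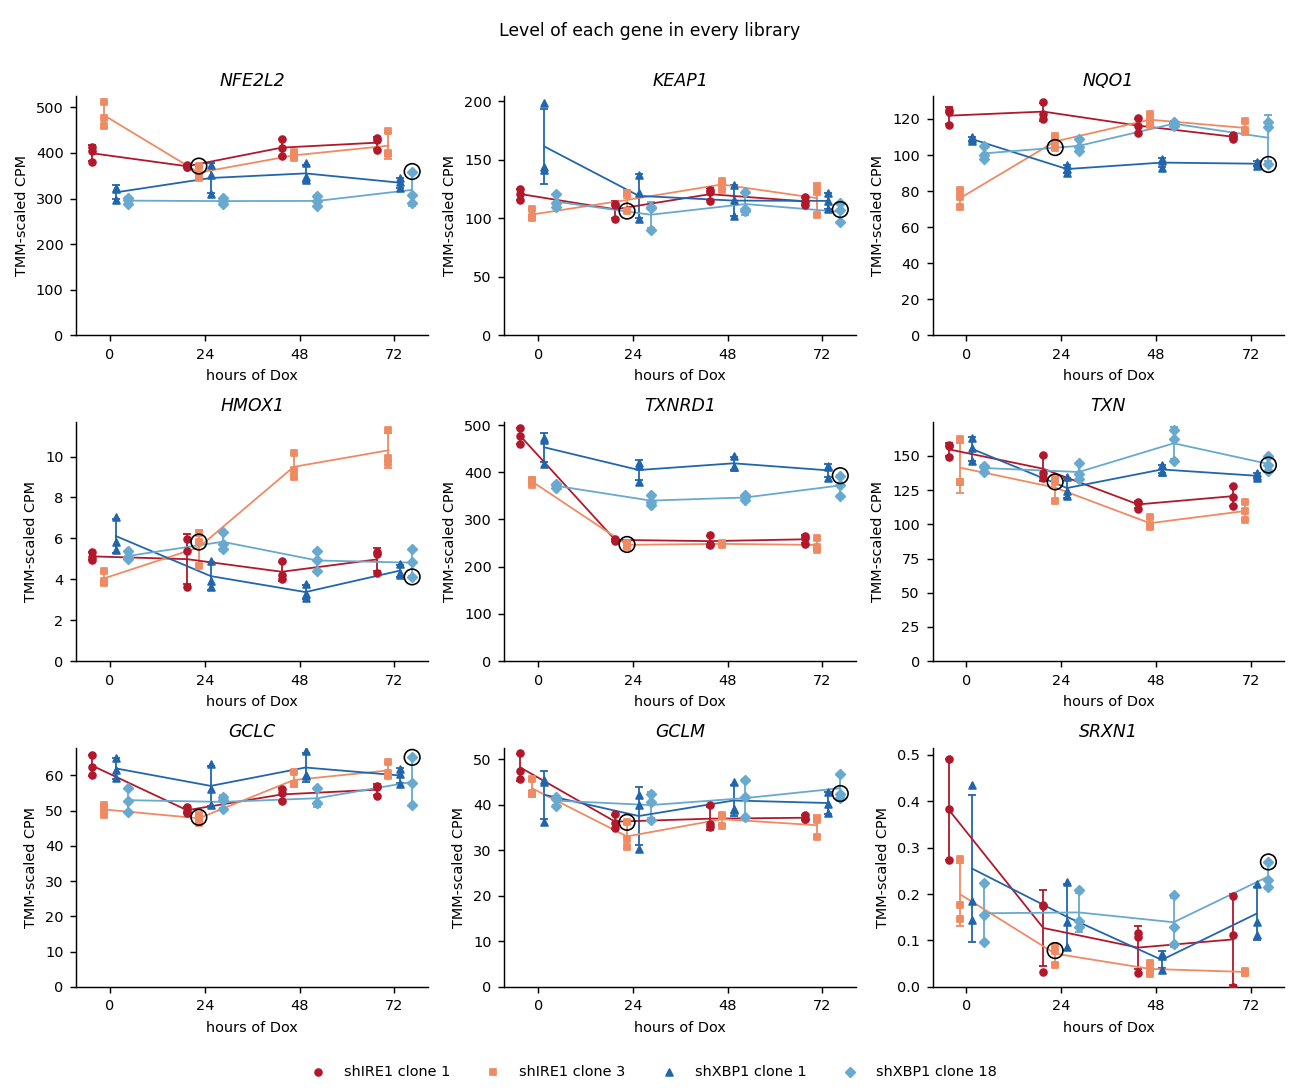
Level of each of the 9 genes in TMM-scaled CPM (vertical axes, from 0) in each of the 48 libraries against hours of Dox (horizontal axes, points of the 4 clones set side by side). Lines join group means, bars are SD (n = 3), and rings mark the 2 libraries that lie near another clone. TXNRD1 drops by 24 h in both shIRE1 clones and HMOX1 climbs only in shIRE1 clone 3.

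In the regulator pair, NFE2L2 was lowered mainly in shIRE1 clone 3. There the 3 libraries lay at 513, 477 and 458 CPM at 0 h, at 371, 354 and 345 at 24 h, at 392, 403 and 389 at 48 h and at 398, 400 and 449 at 72 h. Every library after Dox lay under every 0 h library of the clone. The change was -0.44 ± 0.05 at 24 h (adjusted p = 7.79e-06), -0.30 ± 0.05 at 48 h (0.000173) and -0.23 ± 0.05 at 72 h (0.00179). The step from 24 to 48 h was 0.14 (adjusted p = 0.0489), a call lost in 13 alternatives, among them DESeq2, RLE factors and a replicate block. Without the library near another clone the 24 h value was -0.47. The shIRE1 clone 1 libraries held NFE2L2 at 404, 414 and 380 CPM at 0 h, at 373, 370 and 370 at 24 h and between 392 and 432 at the later times. The 24 h libraries lay just below the 0 h libraries, a change of -0.11 ± 0.04 (adjusted p = 0.0192). The call was lost when replicate 1 (-0.10) or 2 (-0.09) of 0 h was left out, with no filter (-0.09) and with all 48 libraries in the fit (-0.11).

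In the shXBP1 clones NFE2L2 passed no test. shXBP1 clone 1 had 296, 322 and 323 CPM at 0 h and 310 to 377 CPM afterwards, with values of 0.11, 0.16 and 0.07 at the 3 times (adjusted p = 0.229, 0.0807 and 0.434). NFE2L2 in shXBP1 clone 18 stayed between 284 and 308 CPM in 11 of 12 libraries. The exception, at 359 CPM, was the 72 h library that lies near shXBP1 clone 1, and without it the 72 h value was 0.02 in place of 0.12. Of the exon bases of NFE2L2 in GENCODE 44, 38.4% are shared with other annotated genes, 13.6% on the same strand, and how such reads were counted is uncertain.

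KEAP1, the adaptor that presents NRF2 to the CUL3 ligase, had its clearest calls in opposite directions in shIRE1 clone 3 and shXBP1 clone 1. The shIRE1 clone 3 libraries lay at 100, 101 and 108 CPM at 0 h, 106, 121 and 120 at 24 h, 130, 124 and 132 at 48 h and 123, 126 and 103 at 72 h. Only the 48 h value was called, at 0.31 ± 0.08 (adjusted p = 0.00339). The 24 h value was 0.16 (adjusted p = 0.12) and that of 72 h 0.17 (adjusted p = 0.0753), and once the library near another clone was dropped the 24 h value was 0.22 and called (adjusted p = 0.0407). For shXBP1 clone 1 the 0 h libraries were uneven, at 199, 142 and 144 CPM, and the later ones lay at 99.0 to 137 CPM. All 9 later libraries were under all 0 h libraries, and the change was -0.46 ± 0.14, -0.50 ± 0.14 and -0.51 ± 0.14 (adjusted p = 0.0341, 0.0208 and 0.018). These calls rested on the 0 h library at 199 CPM: without it the values were -0.27, -0.32 and -0.33 and none was called (adjusted p = 0.157, 0.0933 and 0.0845). The 24 h call was lost in 9 alternatives, among them a replicate block (-0.44, adjusted p = 0.0622) and the omission of 24 h replicate 1 (-0.33) or 3 (-0.47), 48 h replicate 3 (-0.45) or any 72 h replicate (-0.45 each). The 48 h call was also lost on dropping 48 h replicate 2 (-0.41) or 3 (-0.51), and the 72 h call on dropping 72 h replicate 2 (-0.46) or 3 (-0.50). KEAP1 was also called in shIRE1 clone 1 at 24 h, at -0.17 ± 0.05 (adjusted p = 0.0101), a call lost when replicate 1 of 24 h was left out (-0.11) and with all 48 libraries in the fit (-0.17, adjusted p = 0.183). In shXBP1 clone 18 it passed the test at no time.

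In the thioredoxin branch, TXNRD1 responded early and held its level. It keeps thioredoxin reduced with NADPH, and in both shIRE1 clones its new level was reached by 24 h. The libraries of shIRE1 clone 1 gave 476, 493 and 461 CPM at 0 h, then 260, 254 and 257 at 24 h, 246, 249 and 267 at 48 h and 248, 265 and 261 at 72 h. Those of shIRE1 clone 3 gave 384, 383 and 373 CPM at 0 h and 236 to 260 CPM in the 9 later libraries. The 0 h levels of these clones differed, while after Dox all 18 libraries fell within 236 to 267 CPM. The change was -0.90, -0.91 and -0.89 (± 0.04 each) in shIRE1 clone 1 (adjusted p = 2.57e-13, 1.77e-13 and 2.55e-13) and -0.63, -0.62 and -0.64 (± 0.04 each) in shIRE1 clone 3 (adjusted p = 1.9e-08, 8.42e-09 and 6.55e-09). In neither clone was a later step called.

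The shXBP1 clone 1 libraries had TXNRD1 at 418, 469 and 472 CPM at 0 h and between 380 and 435 CPM afterwards. The groups overlapped in part, and the change was -0.19 ± 0.06 at 24 h (adjusted p = 0.0324), -0.13 at 48 h with no call (adjusted p = 0.106) and -0.19 ± 0.06 at 72 h (adjusted p = 0.0269). Both calls were lost when replicate 2 (-0.16 at each time) or 3 (-0.15 and -0.16) of 0 h was left out. The 24 h call was also lost on dropping replicate 2 of that time (-0.14), and with a replicate block, no filter or only 6 libraries, and the 72 h call on dropping its replicate 1 (-0.15) or 2 (-0.19). TXNRD1 in shXBP1 clone 18 was at 375, 373 and 366 CPM at 0 h and at 331 to 393 CPM afterwards, with no call at any time.

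Sequence near the TXNRD1 and GCLM starts is shown because these genes moved together, and near KEAP1 because the same letters occur there. The motif searched, on both strands, was TGACNNNGC, the core of the antioxidant response element. It was looked for in RefSeq windows of GRCh38.p14 that run from 250 bases before to 50 bases after an annotated start, of which 8 of the 9 members had 11 in all. It occurred in 13.3% of all 34943 such windows and in 4 of the 11 windows, those of TXNRD1, GCLM and KEAP1. The windows of NFE2L2, NQO1, TXN, GCLC and SRXN1 did not hold these letters, and HMOX1 had no window. Sequence beyond the windows was not searched, so a gene without a match here may hold the motif elsewhere. Capitals mark the motif, each sequence is read 5′ to 3′ on the strand named, and positions count from the start, with negative values before it. The matches are a description of letters and not of binding.
TXNRD1 at -99 to -91, chr12:104215670-104215698, plus strand: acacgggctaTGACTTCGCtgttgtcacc
TXNRD1 at -8 to 1, chr12:104215761-104215789, minus strand: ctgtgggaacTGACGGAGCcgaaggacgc
TXNRD1 at -102 to -94 of another start, chr12:104286920-104286948, minus strand: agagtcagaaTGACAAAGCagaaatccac
GCLM at -34 to -26, chr1:93909446-93909474, plus strand: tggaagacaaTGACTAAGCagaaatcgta
KEAP1 at -54 to -46, chr19:10502807-10502835, minus strand: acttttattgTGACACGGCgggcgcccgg
KEAP1 at -31 to -23, chr19:10502784-10502812, plus strand: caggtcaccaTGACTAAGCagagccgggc

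TXN, thioredoxin itself and the substrate of TXNRD1, followed more slowly. Its shIRE1 clone 1 levels were 157, 158 and 149 CPM at 0 h, 137, 151 and 134 at 24 h, 111, 116 and 116 at 48 h and 114, 120 and 128 at 72 h. Its shIRE1 clone 3 levels were 162, 131 and 131 CPM at 0 h, 131, 117 and 132 at 24 h, 99.2, 105 and 98.1 at 48 h and 103, 110 and 116 at 72 h. The 48 and 72 h libraries lay under all 0 h libraries in both clones, while those of 24 h overlapped the 0 h range. The change was -0.14 ± 0.05, -0.43 ± 0.05 and -0.36 ± 0.05 in shIRE1 clone 1 (adjusted p = 0.0154, 2.27e-07 and 2.44e-06). The 24 h call there was lost when replicate 2 of 0 h (-0.13), or replicate 1 (-0.12) or 3 (-0.11) of 24 h, was left out, and with all 48 libraries in the fit (-0.14). For shIRE1 clone 3 the change was -0.16 with no call at 24 h (adjusted p = 0.0985, and -0.18 with no call on dropping the library near another clone), then -0.50 ± 0.08 (adjusted p = 5.15e-05) and -0.38 ± 0.08 (adjusted p = 0.000628). The step from 24 to 48 h was called in both, at -0.29 and -0.33 (adjusted p = 0.000136 and 0.00363).

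In shXBP1 clone 1, TXN was at 146, 163 and 156 CPM at 0 h, 134, 121 and 124 at 24 h, 138, 143 and 138 at 48 h and 134, 137 and 135 at 72 h. All later libraries were below the 0 h libraries, by -0.32 ± 0.05, -0.16 ± 0.05 and -0.22 ± 0.05 (adjusted p = 0.00136, 0.0372 and 0.00978). The 48 h call was lost on dropping replicate 2 (-0.13) or 3 (-0.17) of 0 h, or any of replicates 1 (-0.16), 2 (-0.17) and 3 (-0.16) of 48 h. It was also lost with a replicate block (-0.16, adjusted p = 0.0755), with no filter, and with all 48 or only 6 libraries in the fit. The 48 h libraries of shXBP1 clone 18 lay highest, at 169, 162 and 146 CPM against 142, 143 and 138 at 0 h, a value of 0.17 that passed no test (adjusted p = 0.13).

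SRXN1, which restores overoxidised peroxiredoxins, was near the limit of detection. Summed over the 3 libraries, its counts at 0, 24, 48 and 72 h were 34, 13, 8 and 8 in shIRE1 clone 1 and 15, 7, 4 and 3 in shIRE1 clone 3. They were 23, 17, 5 and 14 in shXBP1 clone 1, and in shXBP1 clone 18 they were 11, 16, 12 and 23. In both shIRE1 clones and in shXBP1 clone 1 every sum after Dox was under that of 0 h. A sum of 3 counts over a group is also the floor that a count of 0 allows, so no fold is given for this gene. Of its exon bases 90.7% are shared with an overlapping annotated gene on the same strand, which makes even these counts uncertain.

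In glutathione synthesis, GCLC encodes the catalytic and GCLM the modifier subunit of glutamate-cysteine ligase, the rate-limiting enzyme, and they parted in shIRE1 clone 3. GCLM in shIRE1 clone 1 was at 51.5, 47.6 and 45.6 CPM at 0 h, against 34.9 to 39.9 CPM in the 9 later libraries. Its shIRE1 clone 3 libraries lay at 42.4, 45.8 and 42.7 CPM at 0 h and at 30.7 to 37.7 CPM later. No later library reached the 0 h range in either clone. The change was -0.41, -0.38 and -0.38 (± 0.06 each) in shIRE1 clone 1 (adjusted p = 5.36e-06, 1.04e-05 and 1.49e-05) and -0.41, -0.25 and -0.31 (± 0.07 each) in shIRE1 clone 3 (adjusted p = 0.000261, 0.00595 and 0.00157). Without the library near another clone the 24 h value in shIRE1 clone 3 was -0.47. In the shXBP1 clones GCLM ranged over 30.4 to 46.9 CPM, with 0 h and later libraries overlapping and no call.

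GCLC in shIRE1 clone 1 went from 62.3, 65.9 and 60.0 CPM at 0 h to 50.0, 51.0 and 49.3 at 24 h, then 55.0, 52.6 and 56.1 at 48 h and 54.1, 57.0 and 56.7 at 72 h. The shIRE1 clone 3 libraries went from 51.6, 50.5 and 48.8 CPM at 0 h to 48.1, 48.7 and 46.6 at 24 h, then 57.5, 61.0 and 57.4 at 48 h and 60.7, 59.8 and 63.7 at 72 h. The late libraries were thus all below 0 h in the former and all above it in the latter. The change was -0.33, -0.20 and -0.17 (± 0.05 each) in shIRE1 clone 1 (adjusted p = 7.28e-06, 0.00103 and 0.0044). For shIRE1 clone 3 it was -0.08 with no call at 24 h (adjusted p = 0.218, and -0.08 also on dropping the library near another clone), then 0.21 ± 0.05 and 0.27 ± 0.05 (adjusted p = 0.00197 and 0.000265). From 24 to 48 h GCLC rose in shIRE1 clone 3, by 0.29 (adjusted p = 0.000359). The same step in shIRE1 clone 1 was 0.13 (adjusted p = 0.0489), a call lost in 14 alternatives, DESeq2 and a replicate block among them. In the shXBP1 clones it lay at 49.6 to 66.8 CPM with no call.

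NQO1, which reduces quinones with NADPH or NADH, started low in shIRE1 clone 3 and rose there. Its libraries gave 80.6, 77.0 and 71.0 CPM at 0 h, 104, 108 and 111 at 24 h, 117, 123 and 120 at 48 h and 114, 113 and 119 at 72 h. All 9 later libraries lay above the 0 h libraries and inside the range of the other clones. The change was 0.49, 0.64 and 0.58 (± 0.05 each, adjusted p = 1.97e-06, 4.37e-08 and 1.43e-07), and the 24 h value was 0.52 once the library near another clone was dropped. The other shIRE1 clone had NQO1 at 116, 124 and 125 CPM before Dox and at 110, 109 and 111 at 72 h, where it was lower, at -0.15 ± 0.04 (adjusted p = 0.00508), with no call at 24 or 48 h. The shXBP1 clone 1 libraries lay at 108, 110 and 109 CPM at 0 h and at 90.2 to 97.9 CPM afterwards, a fall in every library, of -0.26, -0.20 and -0.21 (± 0.04 each, adjusted p = 0.00116, 0.00537 and 0.00316).

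In shXBP1 clone 18, NQO1 depended on the library near another clone. It was at 99.8, 105 and 98.1 CPM at 0 h and at 116, 118 and 118 at 48 h, with 116, 118 and 94.8 at 72 h, the last being that library. With it, NQO1 was not called at 48 h (0.22, adjusted p = 0.102) or 72 h (0.12). Without it, both values were 0.22 and both were called (adjusted p = 0.00622 and 0.0183). NQO1 shares 19.4% of its exon bases with a gene on the opposite strand, and whether strand was used in counting is not given in the sources used here.

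HMOX1, which opens the haem ring and releases iron, was the lowest of the tested genes, with 87 to 367 counts per library. In shIRE1 clone 3 it was at 4.40, 3.83 and 3.91 CPM at 0 h, 5.82, 6.24 and 4.63 at 24 h, 10.1, 9.36 and 8.98 at 48 h and 11.3, 9.94 and 9.70 at 72 h. The 48 and 72 h libraries of this clone exceeded every other library of the series. The change was 0.45 ± 0.13 at 24 h (adjusted p = 0.0093), 1.22 ± 0.12 at 48 h (5.1e-07) and 1.34 ± 0.12 at 72 h (1.89e-07). The 24 h call was lost on dropping replicate 2 of that time (0.35), and the value was 0.43, still called, on dropping the library near another clone (adjusted p = 0.0217). The shXBP1 clone 1 libraries were at 7.03, 5.46 and 5.85 CPM at 0 h, 3.63, 4.91 and 3.93 at 24 h, 3.76, 3.09 and 3.28 at 48 h and 4.76, 4.29 and 4.23 at 72 h. All later libraries were below 0 h, by -0.57 ± 0.14, -0.87 ± 0.14 and -0.49 ± 0.14 (adjusted p = 0.0101, 0.00102 and 0.0199). The 72 h call was lost on dropping replicate 1 of 0 h (-0.36) or replicate 2 or 3 of 72 h (-0.45 each), and the 24 h call with only 6 libraries in the fit (-0.57, adjusted p = 0.055). HMOX1 was not called at any time in shIRE1 clone 1 (3.61 to 5.98 CPM) or shXBP1 clone 18 (4.12 to 6.33 CPM). Libraries overlapped those of 0 h there except at 48 h in shIRE1 clone 1, at 4.90 CPM or less against 4.93 CPM or more, and at 24 h in shXBP1 clone 18, at 5.46 CPM or more against 5.36 CPM or less.

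**Figure D2:**
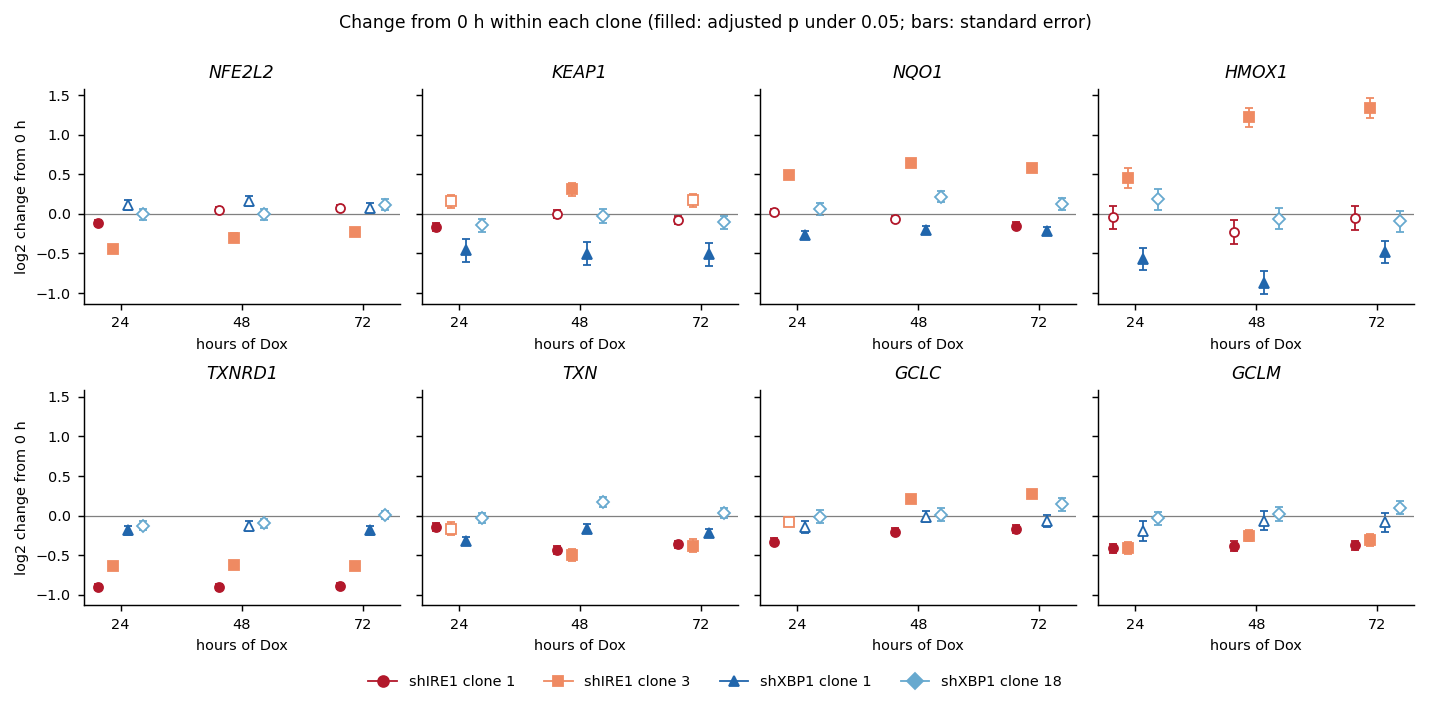
Log2 change from 0 h (vertical axis) at 24, 48 and 72 h of Dox (horizontal axis) for the 8 genes tested within clones, with bars of 1 SE and filled symbols for an adjusted p under 0.05. The shIRE1 clones lie together for TXNRD1, TXN and GCLM and apart for HMOX1, NQO1 and GCLC, and no symbol of shXBP1 clone 18 is filled.

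Counted over the 8 members tested, 6, 4 and 5 were called in shIRE1 clone 1 at 24, 48 and 72 h, all lower. Of all genes tested there, 61.4%, 65.4% and 63.6% were called and 29%, 31.5% and 31.1% were called lower. The number called was close to that background and only the direction stood apart from the even split of all genes. For shIRE1 clone 3, 5, 8 and 7 members were called (2, 4 and 3 higher and 3, 4 and 4 lower), against 46.2%, 63.2% and 60.2% of all genes, 22.8%, 31.6% and 29.7% of them higher and 23.3%, 31.6% and 30.5% lower. In shXBP1 clone 1, 5, 4 and 5 members were called, all lower, against 26.7%, 32% and 33.6% of all genes and 12.8%, 15.5% and 16.8% called lower. With a replicate block these counts in shXBP1 clone 1 were 3, 3 and 5, and without 48 h replicate 2 or 3, or without 72 h replicate 2, the count at that time was 2. None was called by edgeR in shXBP1 clone 18, where 1.59%, 5.78% and 9.96% of all genes were. There 1, 2 and 0 members had an unadjusted p under 0.05, and DESeq2 and limma called 0 at each time. Without the library near another clone, edgeR called 0, 1 and 1 members in shXBP1 clone 18, against 4.78%, 12.9% and 7.57% of all genes. KEAP1 at 24 h became the sixth member called in shIRE1 clone 3 when its library near another clone was left out, against 48% of all genes. From 24 to 48 h, 4 members were called in shIRE1 clone 1 (3 higher) and 5 in shIRE1 clone 3 (4 higher), against 30.3% and 34.6% of all genes. None was called for this step in the shXBP1 clones, where 0% of all genes were. From 48 to 72 h no member was called in any clone, against 0.869% of all genes in shIRE1 clone 1, 0.936% in shIRE1 clone 3, 0.012% in shXBP1 clone 1 and 0% in shXBP1 clone 18.

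Whether the response differed between the shIRE1 and the shXBP1 clones was tested in a fit of all 48 libraries and 18445 genes. The value was the mean log2 change of the 2 shIRE1 clones minus that of the 2 shXBP1 clones. Its p-values rest on the spread between cultures of a clone and do not measure the spread between clones. TXNRD1, GCLM and NFE2L2 were lower and NQO1, HMOX1 and KEAP1 higher in shIRE1 than in shXBP1 at all 3 times, and TXN was lower at 48 and 72 h. Called were 6, 7 and 7 of 8 members at 24, 48 and 72 h, with 38.7%, 56.9% and 55.3% of all genes called. GCLC passed this test at no time in the fit of all libraries, with 0.02 ± 0.07 at 72 h, the mean of clones that moved in opposite directions.

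TXNRD1 was the member whose difference was called in all 4 single pairs of a shIRE1 with a shXBP1 clone at every time. It was -0.61 ± 0.05, -0.65 ± 0.05 and -0.68 ± 0.05 at the 3 times (adjusted p = 5.48e-14, 3.99e-15 and 1.73e-15), and the single pairs at 72 h were -0.72, -0.89, -0.46 and -0.63. On dropping both libraries near another clone these were -0.72, -0.88, -0.45 and -0.61, and all pairs at all times were still called. GCLM differed by -0.30 ± 0.09, -0.30 ± 0.09 and -0.35 ± 0.09 (adjusted p = 0.00823, 0.00531 and 0.00143), and at 72 h 2 of its 4 single pairs were called, those with shXBP1 clone 18 (-0.47 and -0.39). Both remained called on dropping both libraries (-0.52 and -0.43), and the pair of shIRE1 clone 1 with shXBP1 clone 1 was then called too (-0.32, adjusted p = 0.0429). TXN differed by 0.01 at 24 h with no call (adjusted p = 0.895), then by -0.47 ± 0.07 and -0.28 ± 0.07 (adjusted p = 7.36e-08 and 0.000394), and the 72 h value was called in the pairs with shXBP1 clone 18 (-0.39 and -0.40) and not in those with shXBP1 clone 1 (-0.17 each), with the same calls on dropping both libraries.

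At 72 h HMOX1, NQO1 and NFE2L2 were called in the direction of the mean over clones in both pairs with shIRE1 clone 3 and in neither with shIRE1 clone 1. HMOX1 differed by 0.39 ± 0.14, 0.96 ± 0.14 and 0.93 ± 0.14 (adjusted p = 0.0244, 3.5e-07 and 4.96e-07), and the single pairs at 72 h were 1.81 and 1.45 with shIRE1 clone 3 and 0.42 and 0.06, without a call, with shIRE1 clone 1. On dropping both libraries near another clone they were 1.82, 1.32, 0.42 and -0.08, with the same calls. At 48 h the pair of shIRE1 clone 1 with shXBP1 clone 1 was called (0.62, adjusted p = 0.0123), and at 24 h only that of shIRE1 clone 3 with shXBP1 clone 1 was (1.01). Its 24 h call was lost when any of 6 libraries was left out, with values of 0.32 to 0.37. These were 24 h replicate 2 of both shIRE1 clones, 0 h replicate 2 of shIRE1 clone 3, 24 h replicate 1 of both shXBP1 clones and 0 h replicate 1 of shXBP1 clone 1. NQO1 differed by 0.35 ± 0.05, 0.27 ± 0.05 and 0.26 ± 0.05 (adjusted p = 9.17e-07, 2.85e-05 and 6.05e-05), but in the pair of shIRE1 clone 1 with shXBP1 clone 18 it had the opposite sign and was called at 48 and 72 h (-0.28 and -0.26, the latter -0.39 on dropping both libraries). At 24 h NQO1 was called in the 3 other pairs, shIRE1 clone 1 with shXBP1 clone 1 included (0.27). NFE2L2 differed by -0.34 ± 0.06, -0.21 ± 0.06 and -0.17 ± 0.06 (adjusted p = 2.92e-05, 0.00392 and 0.0202), with -0.31 and -0.33 at 72 h for the pairs with shIRE1 clone 3 and -0.01 and -0.03, without a call, for those with shIRE1 clone 1. On dropping both libraries the 72 h pairs were -0.30, -0.25, -0.02 and 0.03, with the same calls. At 24 h it was also called in the pair of shIRE1 clone 1 with shXBP1 clone 1 (-0.24, adjusted p = 0.036). Its 72 h value with no filter was -0.16 and missed the threshold (adjusted p = 0.0529).

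KEAP1 differed by 0.29 ± 0.10, 0.41 ± 0.10 and 0.36 ± 0.10 (adjusted p = 0.0226, 0.000734 and 0.0036), and the largest single pair at 72 h joined shIRE1 clone 3 with shXBP1 clone 1 (0.67), while shIRE1 clone 1 against shXBP1 clone 18 gave 0.04 without a call. The pairs with shXBP1 clone 1 were the called ones at 72 h (0.41 and 0.67), also on dropping both libraries (0.41 and 0.68). The 24 h call of KEAP1 was lost without any of 7 libraries, with values of 0.19 to 0.27. These were 0 h replicate 1 of each of the 4 clones, 24 h replicate 1 of both shXBP1 clones and 24 h replicate 3 of shIRE1 clone 3. Leaving out both libraries that lie near another clone gave 7, 7 and 7 members called, the addition at 24 h being GCLC (-0.15, adjusted p = 0.0475).

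**Figure D3:**
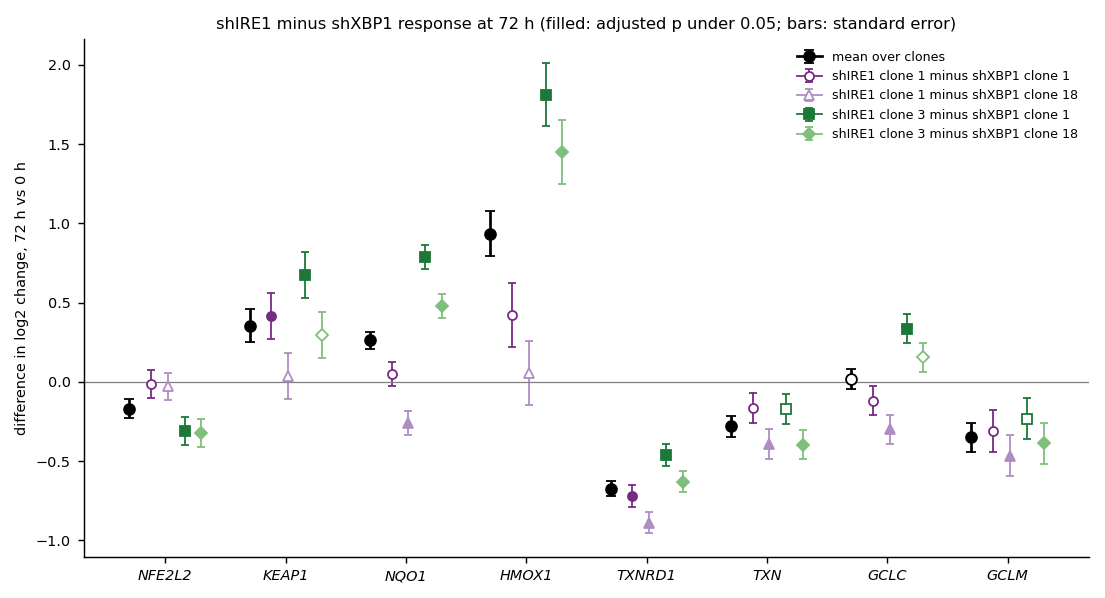
Difference between the log2 change at 72 h in shIRE1 and that in shXBP1 (vertical axis), for the mean over clones (black) and for each of the 4 single pairs of clones, for 8 genes, with bars of 1 SE and filled symbols for an adjusted p under 0.05. TXNRD1 lies below 0 in every pair, and HMOX1, NQO1 and NFE2L2 depart from 0 in both pairs with shIRE1 clone 3.

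The clones of one shRNA also differed in their response. Between the shIRE1 clones, clone 1 minus clone 3, 4, 5 and 5 members were called at 24, 48 and 72 h, against 28.2%, 30.8% and 27.5% of all genes. HMOX1 differed most, by -1.45 ± 0.20 and -1.39 ± 0.20 at 48 and 72 h (adjusted p = 3.04e-07 and 8.16e-07), while the 24 h value of -0.50 was not called (adjusted p = 0.0592). NQO1 differed by -0.47, -0.72 and -0.74, GCLC by -0.25, -0.42 and -0.45 and TXNRD1 by -0.27, -0.29 and -0.26, the fall of TXNRD1 being the larger in clone 1. NFE2L2 differed the other way, by 0.33, 0.33 and 0.30, and TXN, GCLM and KEAP1 passed this test at no time. The GCLC call at 24 h was lost without shIRE1 clone 1, 0 h replicate 2 (-0.22) or shIRE1 clone 3, 0 h replicate 3 (-0.24).

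Between the shXBP1 clones, clone 1 minus clone 18, 3, 4 and 1 members were called, against 17.1%, 24.1% and 24.6% of all genes. The values at 72 h include the library of shXBP1 clone 18 that lies near shXBP1 clone 1. NQO1 differed at all times (-0.30, -0.40 and -0.31), HMOX1 and TXN at 24 h (-0.73 and -0.26) and 48 h (-0.79 and -0.32), and KEAP1 at 48 h (-0.46). The TXN call at 24 h was lost on dropping any of 6 libraries (-0.24 to -0.28). These were shXBP1 clone 1, 0 h replicate 2 and 24 h replicates 2 and 3, shXBP1 clone 18, 0 h replicate 3 and 24 h replicate 2, and shIRE1 clone 3, 48 h replicate 3. The KEAP1 call was lost on dropping shXBP1 clone 1, 0 h replicate 1 (-0.31) or 48 h replicate 2 (-0.40), or shXBP1 clone 18, 48 h replicate 3 (-0.42). At 72 h 3 further members missed the threshold narrowly, KEAP1 (-0.38, adjusted p = 0.0537), TXNRD1 (-0.17, adjusted p = 0.061) and TXN (-0.23, adjusted p = 0.0718), so that the count there moved between 1 and 4 as single libraries were left out.

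Before Dox the clones already differed in these genes. NFE2L2 was highest in shIRE1 clone 3 at 483 ± 27.6 CPM (SD, n = 3), then 399 ± 17.7 in shIRE1 clone 1, 314 ± 15.4 in shXBP1 clone 1 and 296 ± 6.93 in shXBP1 clone 18. Of these neighbours only the last pair was not called (0.09, adjusted p = 0.258). NQO1 was highest in shIRE1 clone 1 at 122 ± 4.64 CPM, then 109 ± 1.04 in shXBP1 clone 1 and 101 ± 3.51 in shXBP1 clone 18, a pair that was not called (0.11, adjusted p = 0.0868). It was lowest in shIRE1 clone 3 at 76.2 ± 4.82. The call between shIRE1 clone 1 and shXBP1 clone 1 was lost on dropping any of 5 libraries of these groups, all but shIRE1 clone 1, 0 h replicate 1. TXNRD1 was at 477 ± 16.2 CPM in shIRE1 clone 1 and 453 ± 30.6 in shXBP1 clone 1, with no call between them (0.07, adjusted p = 0.234). Below them it was at 380 ± 6.01 in shIRE1 clone 3 and 371 ± 4.38 in shXBP1 clone 18, again with no call (0.03, adjusted p = 0.618). GCLC had the same order of clones as TXNRD1 at its upper end, at 62.7 ± 2.96 and 62.0 ± 2.87 CPM, over 53.0 ± 3.43 in shXBP1 clone 18 and 50.3 ± 1.39 in shIRE1 clone 3, with no call inside either pair and a call between them (0.22, adjusted p = 0.00419).

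KEAP1 at 0 h was highest in shXBP1 clone 1 at 161 ± 32.3 CPM, with no call among the other 3 clones (103 to 121 CPM), and its call over shIRE1 clone 1 was lost on dropping the library at 199 CPM (-0.26). HMOX1 differed between shIRE1 clone 3 (4.05 ± 0.306 CPM) and shXBP1 clone 1 (6.11 ± 0.821 CPM) only, by -0.59 (adjusted p = 0.000707). GCLM was called only for shIRE1 clone 1 over shXBP1 clone 18 (0.23, adjusted p = 0.0303), a call lost on dropping shIRE1 clone 1, 0 h replicate 1 (0.19) or shXBP1 clone 18, 0 h replicate 1 (0.22) or 3 (0.25), and TXN for none. The share of all genes called at 0 h was 40.6% between the shIRE1 clones and 51.3% between the shXBP1 clones. It was 32.3% and 52.7% for shIRE1 clone 1 against shXBP1 clones 1 and 18, and 52.2% and 39.1% for shIRE1 clone 3.

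Across the 12 combinations of clone and time after Dox, the members fell into a few shapes when each group mean was set against the 0 h mean of its clone. The points of a clone share its 0 h libraries, so the coefficients describe these data and carry no test. TXNRD1 and GCLM ran together (Pearson r = 0.945), as did NQO1 and HMOX1 (0.921), KEAP1 and NQO1 (0.886) and KEAP1 and HMOX1 (0.879). NFE2L2 ran against NQO1 (-0.877) and against KEAP1 (-0.803). In some groups NFE2L2 and KEAP1 also ran against each other between replicates. The 24 h libraries of shXBP1 clone 1 held NFE2L2 at 375, 310 and 351 CPM and KEAP1 at 99.0, 137 and 122 CPM. How far this spread between libraries enters the coefficient was not tested. Among 12000 other genes, those nearest to NFE2L2 in shape were LARS (0.964), ENOSF1 (0.957) and DCUN1D4 (0.953). The nearest single gene was SERTAD2 for TXNRD1 (0.996), PIDD1 for KEAP1 (0.991), TRIM52 for HMOX1 (0.977) and DUSP14 for NQO1 (0.973). It was TP53BP2 for GCLC (0.970) and IKBIP for TXN (0.965).

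**Figure D4:**
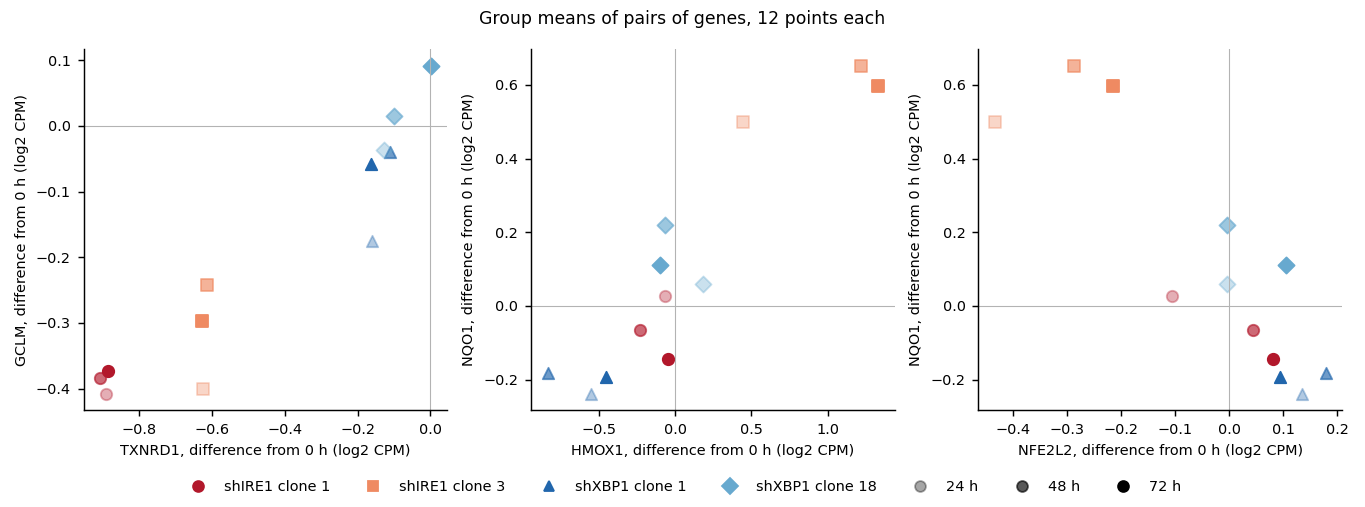
Difference of the group mean log2 CPM from the 0 h mean of the same clone for 3 pairs of genes, with 12 points each (colour and shape for the clone, darker for later times). GCLM tracks TXNRD1, NQO1 tracks HMOX1, and in shIRE1 clone 3 NQO1 lies high and NFE2L2 low, with the spread along each axis set largely by which clone a point belongs to.

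The wider pathway was described with lists drawn up from textbook knowledge, the members left out. Counts at 72 h are to be read against all genes, of which 32.5% were higher and 31.1% lower in shIRE1 clone 1, 29.7% and 30.5% in shIRE1 clone 3, 16.8% each way in shXBP1 clone 1 and 4.41% and 5.55% in shXBP1 clone 18. Without the library near another clone, 3.09% of all genes were higher and 4.48% lower in shXBP1 clone 18, the shares for list counts given without it. The median log2 change of all genes at 72 h lay between -0.01 and 0.02 in every clone. Of 15 genes that control NRF2, 5 were higher and 6 lower in shIRE1 clone 1 (median -0.09), 2 and 9 in shIRE1 clone 3 (median -0.28), 4 and 3 in shXBP1 clone 1 (median 0.03) and 0 and 6 in shXBP1 clone 18 (median -0.24; 0 and 5, median -0.14, without the library near another clone). MAFF, a small MAF partner of NRF2, fell, at -1.47 and -2.06 for shIRE1 clones 1 and 3 (adjusted p = 4.24e-09 and 7.4e-10), and so did BACH1, a repressor that competes for the same elements, at -0.47 and -0.72 (adjusted p = 1.52e-06 and 1.23e-07). In the same clones DPP3, which competes with NRF2 for KEAP1, rose by 0.29 and 0.56, and GSK3B, a kinase that marks NRF2 for degradation, by 0.19 and 0.31. BACH1 was also called lower in shXBP1 clone 18 when the library near another clone was left out (-0.24, adjusted p = 0.0354). In the shXBP1 clones only SYVN1, a ligase of the endoplasmic reticulum that also targets NRF2, passed in both, at -0.85 and -0.71 (adjusted p = 0.000118 and 0.00044), the latter -0.60 and still called without the library near another clone.

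Of 22 tested among 28 other NRF2 targets, 6 were higher and 10 lower in shIRE1 clone 1 (median -0.21), 3 and 11 in shIRE1 clone 3 (median -0.25), 3 and 5 in shXBP1 clone 1 (median -0.08) and 0 and 4 in shXBP1 clone 18 (median -0.09), with 0 and 3 without the library near another clone. SLC7A11, the cystine importer that feeds glutathione synthesis, fell, at -1.22 and -2.59 for shIRE1 clones 1 and 3 (adjusted p = 7.46e-11 and 9.48e-13), and EPHX1, an epoxide hydrolase, at -0.93 and -0.92. TRIM16 rose by 1.28 and 1.26 (adjusted p = 3.17e-07 and 4.5e-07) and ABCC1, an exporter of glutathione conjugates, by 0.49 and 0.73. In the shXBP1 clones FTL, the ferritin light chain, fell, at -0.88 and -0.26 (adjusted p = 4.99e-06 and 0.0417), and the call in shXBP1 clone 18 was lost without that library (-0.23, adjusted p = 0.0723). SLC7A11 was called lower in shXBP1 clone 18 too in the fit without that library (-0.25, adjusted p = 0.0443).

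Of 21 tested genes of the glutathione system, 4 were higher and 10 lower in shIRE1 clone 1 (median -0.08), 6 and 12 in shIRE1 clone 3 (median -0.25), 2 and 7 in shXBP1 clone 1 (median -0.16) and 0 and 4 in shXBP1 clone 18 (median -0.12), with 2 in the last clone without the library near another clone. CHAC1, which degrades glutathione, fell, at -0.59 and -3.73 for shIRE1 clones 1 and 3 (adjusted p = 0.000394 and 8.67e-12). SLC3A2, the heavy chain of the cystine importer, fell at -0.98 and -1.27 there and at -0.69 and -0.44 in the shXBP1 clones (-0.33 in shXBP1 clone 18 without that library, still called). For shIRE1 clones 1 and 3, GGT7 rose by 2.70 and 1.46 and GSTK1, a mitochondrial and peroxisomal glutathione transferase, by 0.81 and 0.48. GPX7, a peroxidase of the endoplasmic reticulum, fell in the shXBP1 clones at -0.27 and -0.20 (adjusted p = 0.00611 and 0.0478), and without that library the call in shXBP1 clone 18 was lost (-0.18, adjusted p = 0.0982). CHAC1 was called lower in shXBP1 clone 18 too in the fit without that library (-0.91, adjusted p = 0.000249).

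Of 16 tested genes of the thioredoxin and peroxiredoxin system, 5 were higher and 7 lower in shIRE1 clone 1 (median -0.09), 5 and 8 in shIRE1 clone 3 (median -0.17), 2 and 4 in shXBP1 clone 1 (median -0.11) and 0 and 3 in shXBP1 clone 18 (median -0.09), with 1 in the last clone without the library near another clone. PRDX4, the peroxiredoxin of the endoplasmic reticulum, fell in all 4 clones, at -0.54 and -0.39 in shIRE1 and at -0.69 and -0.85 in shXBP1 (adjusted p = 9.67e-09, 6.6e-05, 3.15e-06 and 0.0315), the last being -0.53 without that library (adjusted p = 1.86e-05). For shIRE1 clones 1 and 3, SESN1, a sestrin, rose by 1.00 and 1.26 and TXN2, mitochondrial thioredoxin, by 0.14 and 0.22, while PRDX5 fell, at -0.12 and -1.14. Of 5 tested genes of superoxide and peroxide removal, CAT, catalase, and CCS, the copper chaperone of superoxide dismutase, rose in both shIRE1 clones, by 0.73 and 0.51 and by 0.83 and 0.44, with 2 lower in shIRE1 clone 1 and 0 in shIRE1 clone 3. The shXBP1 clones had 1 higher and 1 lower in clone 1 and 1 higher in clone 18. Of 9 tested genes of haem and iron, 1 was higher and 4 were lower in each shIRE1 clone, 4 were higher and 2 lower in shXBP1 clone 1, and none was called in shXBP1 clone 18. ACO1, the iron regulatory aconitase, fell, at -1.34 and -1.39, and FECH, which inserts iron into haem, at -0.57 and -0.91 for shIRE1 clones 1 and 3.

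**Figure D5:**
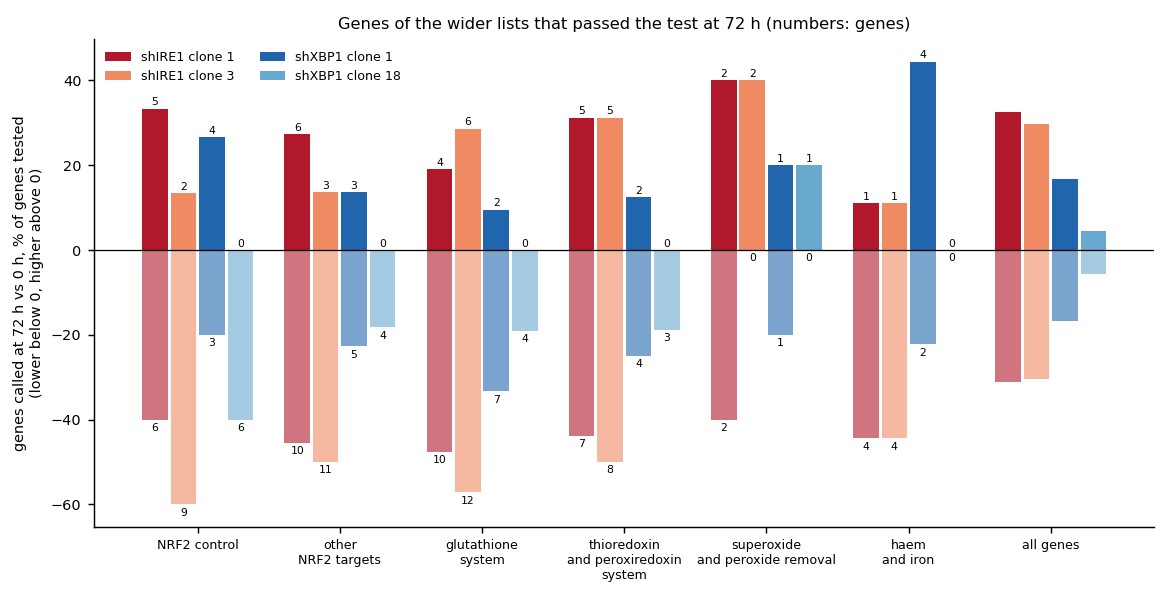
Share of the tested genes of each list that were called at 72 h against 0 h (vertical axis, percent, with higher above 0 and lower below 0) in the 4 clones, with the number of genes printed at each bar and the share of all genes at the right. Bars of both shIRE1 clones reach further down than up in the NRF2, glutathione and thioredoxin lists. Those of all genes are of about equal length. In some lists the surplus of lower genes is small, and no surplus was tested against all genes.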

How the data were processed

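RNA of the 48 AMO1 cultures was sequenced by the submitters with a stranded mRNA kit and single-end reads. Gene-level values of 2 kinds were deposited by the authors, counts for 58302 genes and log2 CPM for 18401 genes. Per the labels, GSNAP, R 4.1.3, edgeR 3.32.1 and limma 3.46.0 were used, with GRCh37 and hg19 named as builds. For a companion AMO1 experiment the study's methods count reads that fall in exons of 1 gene only. Whether these counts were made so, and whether strand was used, is not given in the sources used here. The deposited log2 values matched, within 5e-14, log2 CPM recomputed in edgeR (prior count 2) and were used as deposited, although the plan allowed for log2(value + 1).

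From the counts, edgeR 4.0.16 (R 4.3.3) was run with TMM factors, filterByExpr (minimum count 10, minimum total 15) and the quasi-likelihood test. Each clone was fitted on its 12 libraries (16603 to 17204 genes), and differences between clones and shRNAs on all 48 libraries (18445 genes), with Benjamini-Hochberg adjustment over all genes and a threshold of 0.05. SE is the absolute log2 fold change over the square root of F. Totals were 19177855 to 40767202 counts, so 1 count was at most 0.0521 CPM, and SRXN1 was too shallow to test. Cultures were grown as triplicates, so the spread is that between cultures of a clone. Replicates differed by more than sampling noise (mean chi-square per gene 1.67 to 62.1). The replicate numbers were not taken as pairs. Deviations of equally numbered libraries from their group means correlated above 0.1 in every pair in 1 of 12 comparisons with 0 h. That was shXBP1 clone 1 at 72 h, at 0.365 to 0.652.

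Tried as alternatives were fits of all 48 or of only 6 libraries, RLE factors, no filter, DESeq2 1.42.0, limma 3.58.1 on the deposited log2 table, a replicate block, each library left out in turn and single pairs of clones. Leaving out both libraries that lie near another clone, and leaving SRXN1 out of the counts of calls, were chosen after the data were seen. Named list genes were, per list, those with the largest mean rise and fall at 72 h among genes called in both clones of an shRNA with mean log2 CPM above 1, at most 2 each way. Fits were tested on simulated data. Gene models, overlaps and lengths are from GENCODE 44 on GRCh38 and promoter windows from RefSeq on GRCh38.p14, which may not be the build of the counts. The members and lists were chosen with earlier results of these data known. The gene nearest to GCLM in shape is not reported here.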

Additional observations from a re-analysis of the deposited data

Results flagged for a closer look

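Each value here is a difference between groups in the log2 change from 0 h, with an adjusted p under 0.05 for the difference itself (edgeR's quasi-likelihood test over 18445 genes). The p-values rest on the spread between cultures of a clone, not between clones, and no cause was tested.

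Between shIRE1 and shXBP1, averaged over clones, TXNRD1 differed by -0.61, -0.65 and -0.68 at 24, 48 and 72 h and GCLM by -0.30, -0.30 and -0.35. NFE2L2 differed by -0.34, -0.21 and -0.17 and TXN by -0.47 and -0.28 at 48 and 72 h. KEAP1 differed by 0.29, 0.41 and 0.36, NQO1 by 0.35, 0.27 and 0.26 and HMOX1 by 0.39, 0.96 and 0.93.

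Between shIRE1 clone 1 and shIRE1 clone 3, NQO1 differed by -0.47, -0.72 and -0.74, GCLC by -0.25, -0.42 and -0.45, TXNRD1 by -0.27, -0.29 and -0.26 and NFE2L2 by 0.33, 0.33 and 0.30 at the 3 times. HMOX1 differed by -1.45 and -1.39 at 48 and 72 h. GCLC and NQO1 were the members called in opposite directions in these clones, GCLC at 48 and 72 h and NQO1 at 72 h.

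Between shXBP1 clone 1 and shXBP1 clone 18, NQO1 differed by -0.30, -0.40 and -0.31 at the 3 times. HMOX1 differed by -0.73 and -0.79 and TXN by -0.26 and -0.32 at 24 and 48 h, and KEAP1 by -0.46 at 48 h. The library labelled shXBP1 clone 18, 72 h, replicate 3 lies near shXBP1 clone 1, and without it and the library labelled shIRE1 clone 3, 24 h, replicate 1 the same number of members, 3, 4 and 1, was called.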

How the results depend on the processing

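Of 280 member values, 123 were called, and 84 of these kept direction and call under every alternative counted for them. Those against 0 h of TXNRD1 and GCLM in both shIRE1 clones and of NQO1 and late HMOX1 in shIRE1 clone 3 are among them. For differences between the clones of one shRNA and between clones at 0 h, only RLE factors and fits with libraries left out were counted. Depth limits SRXN1 most, with 0 to 15 counts per library. Under alternatives, 8 values turned sign where the reported or the alternative value was called, and 273 turned sign with neither called. The 8 came from the single pair of shIRE1 clone 1 with shXBP1 clone 18: at 24 h KEAP1 -0.018, HMOX1 -0.22 and NQO1 -0.032, at 48 h HMOX1 -0.17, NFE2L2 0.048 and NQO1 -0.28, and at 72 h GCLC -0.30 and NQO1 -0.26. The cause was not tested.

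Among the alternatives counted for each comparison, counts of members called moved by over 1.5 times in these cases. In shIRE1 clone 1 at 24 h they were 3 with all 48 libraries in the fit (6 reported). From 24 to 48 h they were 1 in shIRE1 clone 1 with all 48 libraries in the fit (4 in the reported fit), and 3 in shIRE1 clone 3 with no filter or with a replicate block (5 reported). In shXBP1 clone 1 at 24 h they were 2 with only the 6 libraries compared and 3 with a replicate block (5 reported). In shXBP1 clone 18 at 48 h they were 1 with all 48 libraries and 2 with only 6 (0 reported). For shIRE1 minus shXBP1 at 24 h, single pairs of shIRE1 clone 1 with either shXBP1 clone gave 3 (6 reported), at 48 h its pair with shXBP1 clone 18 gave 4 (7 reported), and at 72 h its pair with shXBP1 clone 1 gave 2 (7 reported). Between the shXBP1 clones, RLE factors gave 4 at 72 h (1 reported) and 5 at 0 h (3 reported), as did leaving out both libraries near another clone at 0 h (5).

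Leaving out 1 library at a time gave 2 to 4 and 3 to 6 for the 24 to 48 h steps of shIRE1 clones 1 and 3, 2 to 6 and 2 to 5 for shXBP1 clone 1 at 48 and 72 h, and 0 to 1 for shXBP1 clone 18 at both times. It gave 1 to 4 for the shXBP1 clones at 72 h, 3 to 5 for them at 0 h and 1 to 3 for shIRE1 clone 1 against shXBP1 clone 1 at 0 h. Of 936 list counts under alternatives, 838 were within 1.5 times. Replicate numbers are shared between groups, but the deviations of equally numbered libraries correlated at -0.805 to 0.668 over 36 pairs, and every pair exceeded 0.1 in 1 of 12 comparisons, so the replicate block is not evidence of pairing. With the replicate block the other counts against 0 h were 6, 4 and 5, 5, 8 and 7, 3 and 5 at 48 and 72 h in shXBP1 clone 1, and 0.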

Other observations

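In the library labelled shXBP1 clone 18, 72 h, replicate 3, several members had values inside or next to the range of shXBP1 clone 1 at 72 h. NQO1 was at 94.8 CPM there, against 93.9 to 96.4 in shXBP1 clone 1 and 116 and 118 in the other 72 h libraries of shXBP1 clone 18. NFE2L2 was at 359 CPM, against 323 to 344 and against 290 and 308. TXNRD1 was at 393 CPM, against 388 to 413 and against 351 and 373. HMOX1 was at 4.12 CPM, under both shXBP1 clone 1 (4.23 to 4.76) and the other libraries of its group (5.46 and 4.86). TXN was at 143 CPM, within the range of its own group (139 and 150) and above shXBP1 clone 1 (134 to 137). The libraries of these clones overlapped at 72 h for KEAP1 and GCLM.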
